A study of Mus musculus with 8 samples.

Results

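Most *Tmed* genes encode p24 proteins, a family of cargo receptors that cycle between the endoplasmic reticulum (ER) and the Golgi. They were followed in pancreatic islets that overexpress uncoupling protein 2 (UCP2), the mitochondrial carrier encoded by *Ucp2*. *Tmed1* to *Tmed10* were taken by their gene symbols, which gave 10 of 26894 named genes on the array, with 20 of its 56605 probes. Of these 20 probes, 19 were bright enough to be tested, among 35343 in all, and each of the 10 genes kept at least 1. *Tmed11*, an α member outside this set, had 1 probe, which was above background on 0 of the 8 arrays and was not tested. *Tmed6* had been called in the contrast of genotypes described here, and the family was chosen by that result, so the differences of the members are a description and carry no p-value.

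βUCP2Tg mice carry a transgene in which a fragment of the rat *Ins2* promoter drives mouse *Ucp2* cDNA in β-cells, and they were backcrossed to C57BL6/J mice. The comparison was of islets from 4 βUCP2Tg samples and 4 WT samples, all from male mice, and the WT mice were littermates. All islets were handpicked, and the paper's general islet methods describe an overnight culture at a lower glucose level after picking. For the arrays, islets were kept for 8 h in RPMI 1640 with 200 mg/dL glucose and serum before RNA was taken. The sources used here give ranges of age, for the mice of the study and for those used for islets, and no age per sample. They do not settle whether a sample is 1 animal or a pool, so the errors below measure the spread between samples.

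A p24 protein has a lumenal GOLD domain, a coiled-coil stretch, a single membrane span and a short cytoplasmic tail that binds the COPI and COPII vesicle coats. The proteins work as hetero-oligomers drawn from the α, β, γ and δ subfamilies, and loss of a partner can destabilise the others. Their best-known cargoes are glycosylphosphatidylinositol (GPI)-anchored proteins, which they load into COPII vesicles at ER exit sites and return from the Golgi in COPI vesicles when they escape. In β-cells this is the first transport step of a cell that makes and exports large amounts of insulin.

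The sequence that read the called difference in the family, and the windows around the *Tmed6* start site and that of *Tmed10*, the δ member, are given first. The 60-base *Tmed6* probe with the higher signal reads, as the authors' GeneSpring annotation gives it:

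A_55_P1983529: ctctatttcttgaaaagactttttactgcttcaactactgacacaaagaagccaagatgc

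The windows run from 250 bases before to 50 bases after the annotated start, on the strand of the gene, and come from RefSeq on build GRCm38.p6. Both genes lie on the minus strand, *Tmed6* at chr8:107065595-107065894 and *Tmed10* at chr12:85374668-85374967. Capitals mark the letters searched for, which were GTTAATNAT, ACGTG and CCAAT, each on both strands. CACGTG holds ACGTG on each strand and is counted there 2 times.

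Tmed6: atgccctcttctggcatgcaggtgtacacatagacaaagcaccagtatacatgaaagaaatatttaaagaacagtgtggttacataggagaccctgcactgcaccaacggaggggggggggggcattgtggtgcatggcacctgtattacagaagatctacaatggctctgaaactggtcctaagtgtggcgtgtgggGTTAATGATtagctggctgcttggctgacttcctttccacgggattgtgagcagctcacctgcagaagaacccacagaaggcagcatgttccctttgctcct

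Tmed10: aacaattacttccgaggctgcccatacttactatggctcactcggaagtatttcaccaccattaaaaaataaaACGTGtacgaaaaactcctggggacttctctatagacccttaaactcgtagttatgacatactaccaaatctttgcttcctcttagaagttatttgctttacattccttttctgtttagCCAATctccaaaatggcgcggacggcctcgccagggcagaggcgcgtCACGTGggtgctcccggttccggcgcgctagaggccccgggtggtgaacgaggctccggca

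The window was found for 8 of the 10 genes, and *Tmed2* and *Tmed7* had no entry in the table used. ACGTG was present in the windows of 4 of the 8 genes (*Tmed3*, *Tmed8*, *Tmed9* and *Tmed10*) and in 19.6% of all 32851 windows of the same length. CCAAT was present in 5 of 8 (*Tmed1*, *Tmed4*, *Tmed5*, *Tmed9* and *Tmed10*) and in 37.4% of all windows. The *Tmed6* window held neither. It alone among the 8 genes held GTTAATNAT, which 0.801% of all windows held. It also had 3 CpG dinucleotides, against 11 to 37 in the windows of the other 7 genes, a median of 7 over all windows, and 3 or fewer in 31.4% of them. The GTTAATNAT letters were picked after the *Tmed6* window had been read, so their presence there is a description.

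The 8 arrays were on 1 slide. WT arrays lay in one row and βUCP2Tg arrays in the other, so position on the slide and genotype cannot be told apart. Between 33191 and 36320 probes were well above background on an array, and no spot was saturated. Values below are normalized log2 signals, that is log2 of the processed spot intensity minus the 75th percentile of the same array. That percentile was 9.0 to 9.16 on the βUCP2Tg arrays and 8.78 to 8.89 on the WT arrays, before subtraction. *Ucp2* was between 6.99 and 7.71 on the βUCP2Tg arrays and between 0.92 and 1.46 on the WT arrays, as the labels of all 8 have it (log2 fold change 6.24 ± 0.18 SE, limma with Benjamini-Hochberg adjustment, adjusted p = 9.31e-06). All 9 β-cell markers were tested and none was called, and their summed linear level relative to the percentile was 1136 to 1514 on the βUCP2Tg arrays and 1460 to 1499 on the WT arrays. Of the 7 marker lists summed in this way, the acinar list had the widest range over the arrays. The 11 acinar markers tested of 12 (*Ptf1a* was not tested) summed to 17.3, 43.5, 21.1 and 244 on βUCP2Tg replicates 1 to 4, and to 166, 316, 424 and 28.0 on WT replicates 1 to 4.

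*Tmed6* was the member with a called difference, and its signal was higher in βUCP2Tg islets on both of its probes. It is a γ-subfamily p24 protein. On the brighter probe, A_55_P1983529, the normalized log2 signals were 0.92, 0.64, 0.77 and 0.72 on βUCP2Tg replicates 1 to 4. They were -0.35, -0.72, -0.49 and -0.27 on WT replicates 1 to 4. All βUCP2Tg values lay above all WT values, and the log2 fold change was 1.22 ± 0.12 (SE, n = 4 and 4, 95% interval 0.94 to 1.5), a fold change of 2.33.

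The other *Tmed6* probe, A_55_P1983528, was also higher in βUCP2Tg islets, at a lower signal. Its values were -1.02, -1.36, -1.25 and -1.39 in βUCP2Tg islets and -2.25, -2.75, -2.63 and -2.42 in WT islets, again without overlap, which gave a log2 fold change of 1.26 ± 0.14 (SE, n = 4 and 4, 95% interval 0.94 to 1.58), a fold change of 2.39. With normexp background correction it was 0.83 on the log2 scale, against 1.13 for the brighter probe. The deviations of the 2 probes from their genotype means had a Pearson r of 0.88 over the 8 arrays. The 2 probes share their RNA on every array and are not replicates.

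Within each genotype, *Tmed6* tended to be lower on arrays with more acinar RNA. In the order of rising acinar sum, from 28.0 to 424, WT replicates 4, 1, 2 and 3 read -0.27, -0.35, -0.72 and -0.49 on the brighter probe and -2.42, -2.25, -2.75 and -2.63 on the other. In the same order, from 17.3 to 244, βUCP2Tg replicates 1, 3, 2 and 4 read 0.92, 0.77, 0.64 and 0.72 on the brighter probe and -1.02, -1.25, -1.36 and -1.39 on the other. The acinar sums of the genotypes overlapped, with a median log2 fold change of -1.81 over the acinar markers, and their part in the *Tmed6* difference was not tested. The 5 endothelial markers summed to 13.75, 11.03, 13.05 and 12.04 on βUCP2Tg replicates 1 to 4. On WT replicates 1 to 4 they summed to 10.95, 7.65, 9.48 and 11.22. Within each genotype the brighter *Tmed6* probe followed the order of these endothelial sums, and the other probe did so only in part. The endothelial sums of the genotypes overlapped, and their part in the *Tmed6* difference was not tested. The summed macrophage level stood apart by genotype. The 5 tested of 6 (*Emr1* was not tested) summed to 5.93, 4.79, 6.67 and 5.06 on βUCP2Tg replicates 1 to 4 and to 9.51, 9.42, 9.39 and 11.4 on WT replicates 1 to 4. Of these 5, *Cd14* was called lower (log2 fold change -2.10 ± 0.33 SE, limma adjusted p = 0.048), and the median was -0.56. The groups of the other 4 (*Adgre1*, *Cd68*, *Csf1r* and *Lyz2*) overlapped, and *Lyz2* had a log2 fold change of 0.09. The part of macrophage RNA in the *Tmed6* difference was not tested. In these whole-islet samples, a difference in the number of cells of a type and a difference in RNA per cell cannot be told apart.

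**Figure D1:**
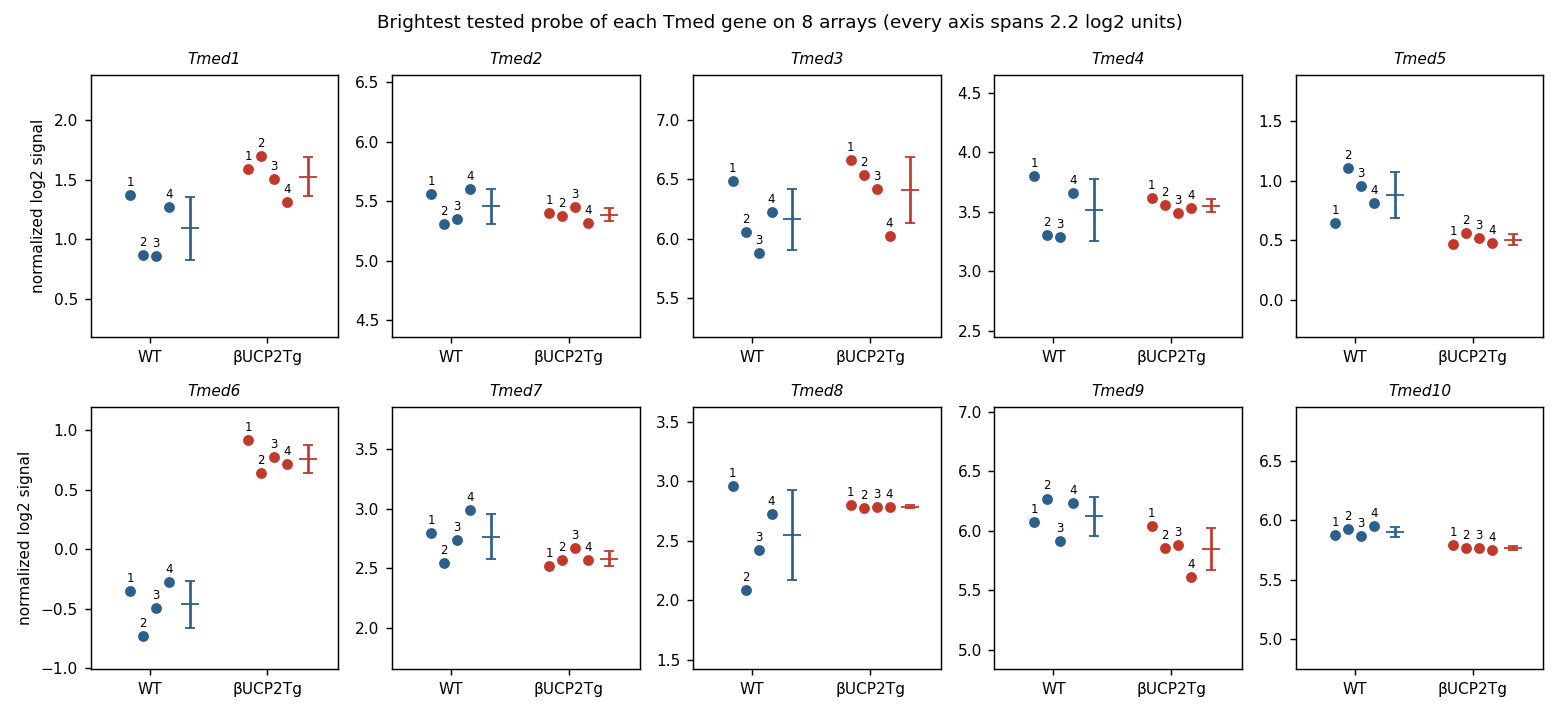
Normalized log2 signal (vertical axis) of the brightest tested probe of each *Tmed* gene on the 4 WT arrays (blue) and 4 βUCP2Tg arrays (red), numbered by replicate, with the mean and SD beside each group. The *Tmed6* groups are separated by 1.22 log2 units, those of *Tmed5* and *Tmed10* lie close without overlap, and the groups of the other 7 genes overlap. Each panel has its own level, because the signals of different probes are not comparable.

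Of the 19 tested *Tmed* probes, 2 were called higher in βUCP2Tg islets, both of *Tmed6*, and 0 were called lower. A probe was called when its adjusted p was below 0.05 and its fold change above 1.5. Over all tested probes, 0.207% were called higher and 0.204% lower. The groups did not overlap for 4 *Tmed* probes in the higher direction and 3 in the lower, against 5.25% and 7.17% of all tested probes. Since the family was chosen through this contrast, nothing is read from these counts. Log2 fold changes were over 0 for 9 probes and under 0 for 10. The median over the 19 tested *Tmed* probes was -0.07, against -0.02 over all 35343 tested probes. Over the brightest probes of the 10 genes it was -0.02, against 0.03 over those of all named genes. Neither *Tmed6* probe was called when βUCP2Tg replicate 1, 2 or 3 or WT replicate 3 was left out, although the log2 fold change of the brighter probe stayed between 1.13 and 1.28 over all alternatives tried. Without WT replicate 1, 4 *Tmed* probes were called higher and 2 lower, and these added probes of *Tmed1* and *Tmed5*. That fit called 1787 probes higher and 1975 lower of all 34767 it tested. Without βUCP2Tg replicate 4, 3 *Tmed* probes were called higher and 1 lower, with the added calls on *Tmed5* probes A_55_P2105351 and A_55_P2089577. Over all 35080 probes tested in that fit, 350 were called higher and 1121 lower, so nothing is read from the added calls.

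The γ subfamily, to which *Tmed1*, *Tmed3*, *Tmed5*, *Tmed6* and *Tmed7* belong, is described first. *Tmed1* encodes a protein first described as a binding partner of the interleukin-1 receptor-like protein ST2. Its brighter probe, A_55_P1983558, read 1.59, 1.69, 1.51 and 1.31 in βUCP2Tg islets and 1.37, 0.87, 0.86 and 1.27 in WT islets. The groups overlapped, because WT replicate 1 lay above βUCP2Tg replicate 4, and the log2 fold change was 0.43 ± 0.15 (SE, n = 4 and 4). The dimmer probe, A_55_P2737229, read -4.21, -3.85, -3.95 and -3.82 in βUCP2Tg islets and -4.25, -5.30, -4.78 and -4.69 in WT islets. Its groups stood apart by the small gap between βUCP2Tg replicate 1 and WT replicate 1. It had a log2 fold change of 0.79 ± 0.21 (SE) and was not called, and with normexp background correction it was 0.06.

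*Tmed3* gave opposite signs on its 2 probes. The bright probe, A_51_P284244, read 6.66, 6.54, 6.42 and 6.02 in βUCP2Tg islets and 6.49, 6.05, 5.88 and 6.22 in WT islets, with a log2 fold change of 0.25 ± 0.18 (SE). The dim probe, A_55_P2713435, ranged from -3.90 to -3.35 in βUCP2Tg islets and from -3.47 to -2.84 in WT islets, with a log2 fold change of -0.31 ± 0.17. Both pairs of groups overlapped and both 95% intervals included 0. On the bright probe the spread within a genotype (SD 0.28 and 0.26) was as large as the difference between genotypes, which ran from 0.16 without WT replicate 3 to 0.38 without βUCP2Tg replicate 4.

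*Tmed7* had 1 tested probe, A_51_P269997, with signals of 2.52, 2.57, 2.67 and 2.57 in βUCP2Tg islets and 2.80, 2.54, 2.73 and 2.99 in WT islets. The groups overlapped at WT replicate 2, and the log2 fold change was -0.19 ± 0.11 (SE). It was -0.11 without WT replicate 4. Its other probe, A_52_P121045, was not well above background on any of the 8 arrays and was not tested.

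*Tmed5* was covered by 6 probes, and they disagreed in direction. The brightest, A_51_P367434, read 0.47, 0.56, 0.52 and 0.48 in βUCP2Tg islets and 0.64, 1.10, 0.96 and 0.81 in WT islets. The groups did not overlap, and the βUCP2Tg arrays were closer together (SD 0.04) than the WT arrays (SD 0.20). On this probe the log2 fold change was -0.37 ± 0.11 (SE, n = 4 and 4, 95% interval -0.63 to -0.12), a ratio of 0.772.

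A_55_P2105351 ran the other way. It read -1.25, -1.39, -1.73 and -2.71 in βUCP2Tg islets and -3.04, -2.97, -3.43 and -3.51 in WT islets. The groups did not overlap, though βUCP2Tg replicate 4 lay nearer to the WT arrays than to the other 3 of its genotype. Its log2 fold change was 1.47 ± 0.31 (SE, 95% interval 0.76 to 2.18). It was larger than that of *Tmed6*, and it was not called. With normexp background correction it was 0.73.

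Of the other 4 *Tmed5* probes, 3 had negative values: A_55_P2105359 with a log2 fold change of -0.67 ± 0.22 (SE), A_55_P2089577 with -0.69 ± 0.17 and A_55_P2724389 with -0.56 ± 0.16. Only the groups of A_55_P2089577 were apart among these 3, with -4.30 to -3.62 in βUCP2Tg islets and -3.55 to -3.08 in WT islets. The last, A_55_P2105346, was well above background on 3 βUCP2Tg and 2 WT arrays and had a log2 fold change of 0.28 ± 0.21. With normexp background correction the 3 negative values shrank to -0.34, -0.40 and -0.33 in the same order, and that of A_55_P2105346 turned to -0.16. Averaged over its 6 probes, the *Tmed5* difference was -0.09, against -0.37 on the brightest. Which transcripts each probe reads was not tested here.

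**Figure D2:**
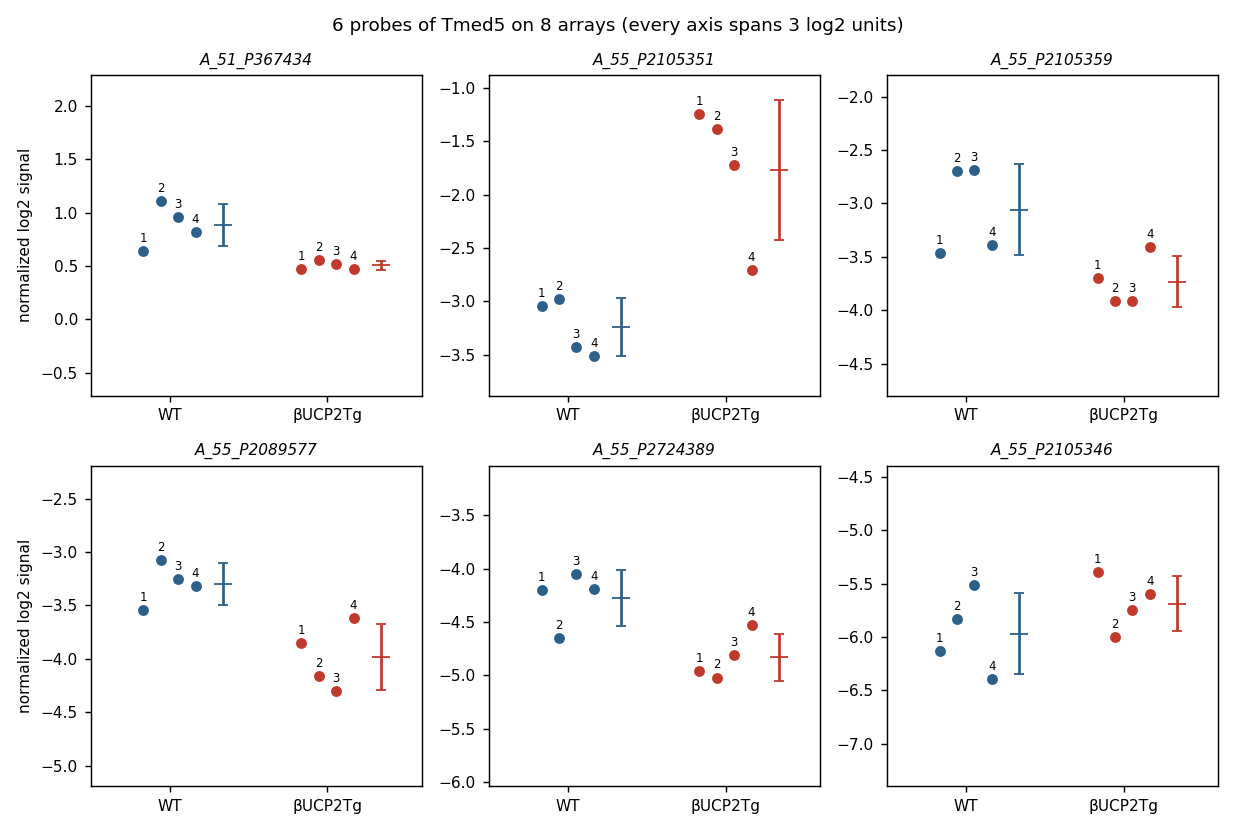
Normalized log2 signal (vertical axis) of the 6 *Tmed5* probes on the 4 WT arrays (blue) and 4 βUCP2Tg arrays (red), numbered by replicate, with mean and SD. A_51_P367434 and A_55_P2089577 are lower in every βUCP2Tg array than in any WT array, A_55_P2105351 is higher in every one, and the other 3 overlap.

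None of the α, β and δ members was called. *Tmed10*, which encodes the δ member p23, had groups that stood apart by a small gap. Its probe, A_51_P371993, read 5.79, 5.77, 5.77 and 5.75 in βUCP2Tg islets and 5.87, 5.93, 5.87 and 5.96 in WT islets. This gave a log2 fold change of -0.14 ± 0.08 (SE), a ratio of 0.910, whose 95% interval (-0.31 to 0.04) included 0. With quantile normalization the difference was -0.01.

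*Tmed2* encodes the β member p24, a partner of TMED10. Its bright probe, A_55_P2098140, read 5.40, 5.37, 5.45 and 5.32 in βUCP2Tg islets and 5.56, 5.31, 5.35 and 5.60 in WT islets. The groups overlapped, with a log2 fold change of -0.07 ± 0.10 (SE) that was 0.08 after quantile normalization. The second *Tmed2* probe, A_52_P399054, had -0.08 ± 0.09. The 95% interval of the bright probe, -0.30 to 0.15, bounds the difference.

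*Tmed9* and *Tmed4* belong to the α subfamily, whose members carry a cytoplasmic tail with a dilysine signal for return to the ER. *Tmed9* (A_51_P262878) read 6.04, 5.85, 5.88 and 5.61 in βUCP2Tg islets and 6.07, 6.27, 5.91 and 6.23 in WT islets. The groups overlapped, with a log2 fold change of -0.28 ± 0.13 (SE, 95% interval -0.56 to 0.01). It was -0.15 after quantile normalization. *Tmed4* (A_55_P2758427) read 3.62, 3.56, 3.49 and 3.53 in βUCP2Tg islets and 3.81, 3.31, 3.29 and 3.66 in WT islets, so the WT values surrounded the βUCP2Tg values. Its log2 fold change was 0.04 ± 0.13 (SE, 95% interval -0.27 to 0.34), and its sign turned when WT replicate 2 (-0.03) or WT replicate 3 (-0.04) was left out.

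*Tmed8* also encodes a GOLD-domain protein, and it was not placed in a p24 subfamily here. Its probe, A_52_P324767, read 2.80, 2.77, 2.79 and 2.79 in βUCP2Tg islets and 2.96, 2.08, 2.42 and 2.73 in WT islets. The βUCP2Tg arrays were nearly identical (SD 0.01) and the WT arrays were spread around and below them (SD 0.38). With overlapping groups, the log2 fold change was 0.24 ± 0.18 (SE). It was 0.08 without WT replicate 2 and 0.38 without WT replicate 1.

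**Figure D3:**
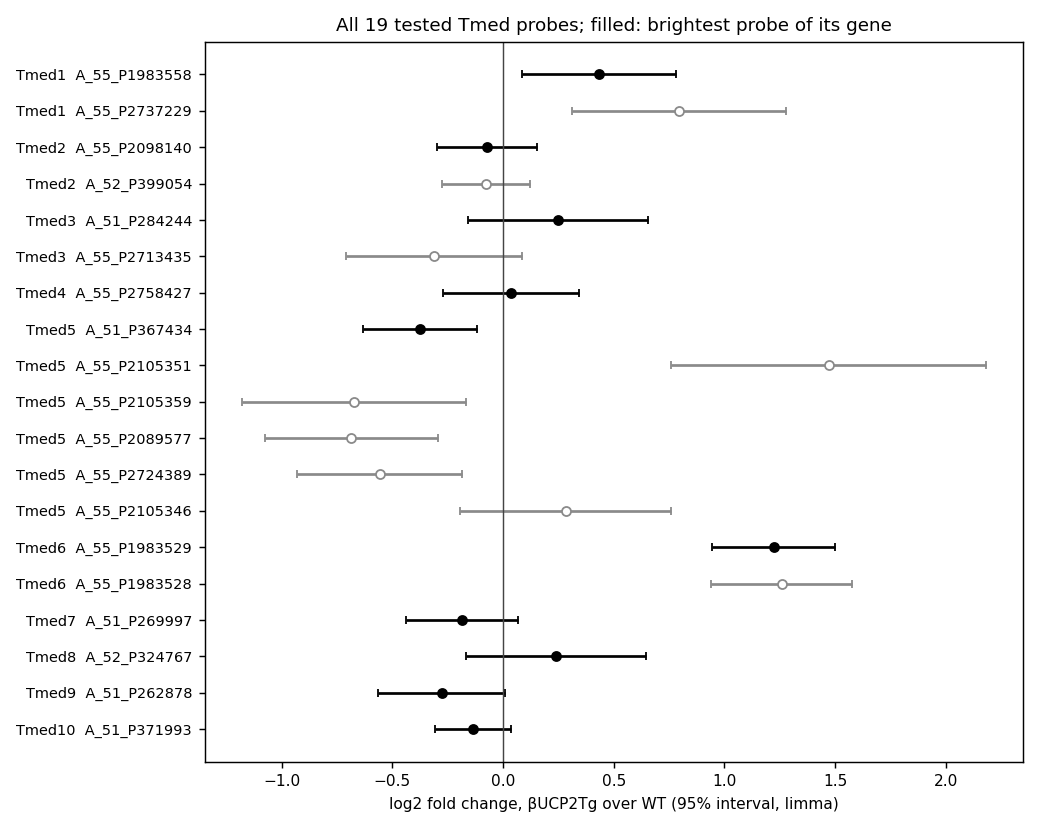
Log2 fold change of βUCP2Tg over WT with its 95% interval from limma (horizontal axis) for the 19 tested probes of *Tmed1* to *Tmed10* (vertical axis), with filled points for the brightest probe of a gene. The 2 *Tmed6* probes lie at 1.22 and 1.26 with intervals that overlap, whereas the 6 *Tmed5* probes spread from -0.69 to 1.47.

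The arrays also differed across the members within each genotype. Among the brightest probes of the 10 genes, βUCP2Tg replicate 1 had the highest value of its genotype for 6 and βUCP2Tg replicate 4 for 0, and the latter had the lowest for 5. Among WT arrays, replicates 1 and 4 each had the highest value for 4 genes, and replicates 2 and 3 had the lowest for 4 and 5. With values centred within each genotype, the brighter *Tmed6* probe had a Pearson r over the 8 arrays of 0.81 with the bright *Tmed2* probe, 0.80 with *Tmed8*, 0.73 with *Tmed7* and 0.72 with *Tmed4*. It was 0.59 with the bright *Tmed1* probe, 0.48 with the bright *Tmed3* probe, 0.18 with *Tmed10*, 0.13 with *Tmed9* and -0.79 with the brightest *Tmed5* probe. Among 30161 tested probes with a gene symbol, the 3 most like *Tmed6* by this measure were those of *C79015* (r = 0.994), *4933407O12Rik* (r = 0.984) and *Rab31* (r = 0.981), and none of these was called. All these values come from the same 8 arrays and so share their RNA and the differences in acinar and endothelial sums given above. They stand as a description.

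The genes beside *Tmed6* were examined as well. Of the 10 genes with a tested probe nearest to it in the RefSeq gene order, 5 on each side, 0 were called by limma and 0 by the methods' t-test, and 1 had an unadjusted p under 0.05. Over all 17855 named genes, each by its brightest tested probe, 0.482% were called and 24.5% had an unadjusted p under 0.05, so these counts are near the background. The gene was *Sntb2*, with a log2 fold change of -0.42 ± 0.12 (SE, limma adjusted p = 0.108). *Nqo1*, a quinone reductase, had 0.97 ± 0.48 (limma adjusted p = 0.239) with overlapping groups. The other 8 (*Vps4a*, *Pdf*, *Cog8*, *Nip7*, *Terf2*, *Cyb5b*, *Nfat5* and *Nob1*) lay between -0.06 and 0.27. *Nip7* and *Terf2*, which flank *Tmed6*, had -0.06 ± 0.11 and 0.02 ± 0.18.

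Genes of the machinery that p24 proteins work with were examined next. Of 84 genes in 6 lists, 82 were tested, with each gene represented by its brightest tested probe, and 0 were called by limma and 0 by the methods' t-test, where 0.482% of the 17855 named genes were called by limma on the same basis. In all, 23 of the 82 had an unadjusted p under 0.05, and 24.5% of all named genes did. Values under 0 were found for 55 of the 82 and for 46% of all named genes, with medians of -0.12 and 0.03. The latter ran from -0.03 with normexp to 0.07 with quantile normalization. The groups were apart in the lower direction for 19 of the 82 and in the higher direction for 3, against 6.73% and 6.37% of all named genes. These counts, and the values below, are those of the brightest probes. No other tested probe of the 82 genes was called. Over all their tested probes the log2 fold changes ran from -1.55 to 0.72, and those of *Rab2a* alone ran from -0.34 to 0.13.

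The COPII coat, which p24 proteins use to leave the ER, had a median log2 fold change of -0.18 over 16 tested genes, 13 of them under 0. On the brightest probes its largest differences were those of the cargo-binding subunit gene *Sec24d*, at -0.53 ± 0.14 (SE, limma adjusted p = 0.0968), and of *Sec23b*, at -0.45 ± 0.23 (limma adjusted p = 0.260). *Sec23b* was 3.31 on WT replicate 1 and 4.09 to 4.49 on the other WT arrays, against 3.38 to 3.75 in βUCP2Tg islets. For the COPI coat and its ARF cycle, which return p24 proteins to the ER, the median was -0.11 over 17 genes. There *Gbf1*, an ARF exchange factor, had -0.33 ± 0.08 (limma adjusted p = 0.0830) with groups apart, and the coat gene *Copg2* had 0.28 ± 0.15 (limma adjusted p = 0.262). After quantile normalization the COPI median was -0.03, with 9 of 17 genes under 0, and the COPII median was -0.13.

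Tethers, RABs and SNAREs between the ER and the Golgi had a median of -0.14 over 20 genes, and of -0.09 after quantile normalization. Of the small GTPase genes, *Rab2a* had -0.34 ± 0.10 (limma adjusted p = 0.113) and *Rab1b* had 0.33 ± 0.17 (limma adjusted p = 0.266). The 16 other ER-Golgi cargo receptors were balanced, 8 over and 8 under 0, with a median of -0.01 that was 0.01 after quantile normalization and on the deposited values. *Ergic3* had 0.32 ± 0.11 (limma adjusted p = 0.134), and the KDEL receptor gene *Kdelr2* had -0.26 ± 0.10 (limma adjusted p = 0.172). Among 7 transcription factors of the secretory pathway the median was -0.13, and -0.06 after quantile normalization. *Bhlha15* had -0.71 ± 0.24 (limma adjusted p = 0.126), and *Atf6*, a sensor of unfolded proteins, had -0.24 ± 0.11 (limma adjusted p = 0.196). *Bhlha15* is also one of the acinar markers, whose summed level on each array is given above and whose median log2 fold change was -1.81. The part of acinar RNA in the values of the transport genes was not tested.

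Genes that remodel the GPI anchor, some in the ER before p24 binding and others later in the Golgi, were the list with a positive median. It was 0.27 over 6 genes, with 5 over 0 and 2 with groups apart in the higher direction, and 0.24 to 0.28 under the other 4 scalings. The gene under 0 was *Pgap1*, which removes an acyl chain from the anchor in the ER, at -0.23 ± 0.15 (limma adjusted p = 0.372), and it is named after its value was seen. *Mppe1*, which trims the anchor's glycan before p24 binding, read 0.55, 0.47, 0.44 and 0.31 in βUCP2Tg islets and 0.23, -0.35, -0.20 and -0.11 in WT islets. Its log2 fold change was 0.55 ± 0.13 (SE, limma adjusted p = 0.0871), which missed the threshold. *Tmem246*, which adds a side chain to the anchor in the Golgi, had 0.48 ± 0.15 (limma adjusted p = 0.113). Without WT replicate 1, both were called higher, and *Sec23b*, *Sec24d* and *Bhlha15* were called lower, in a fit that called 1787 probes higher and 1975 lower in all.

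**Figure D4:**
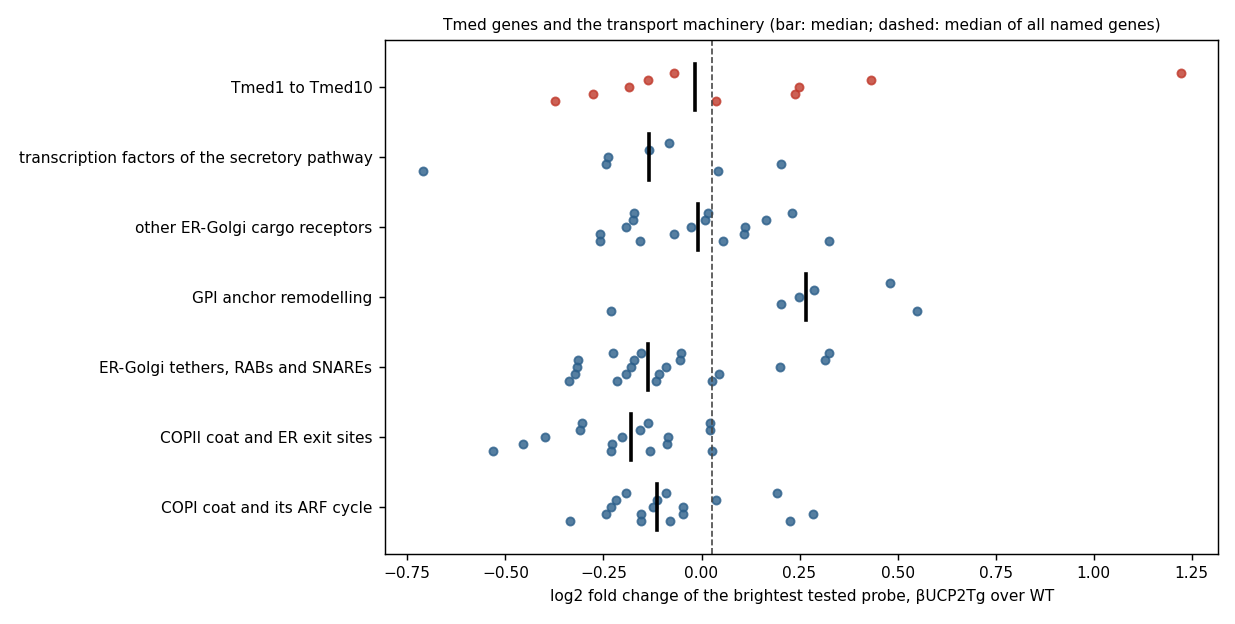
Log2 fold change of βUCP2Tg over WT (horizontal axis) for the brightest tested probe of each gene, for *Tmed1* to *Tmed10* (red) and the 6 transport lists (blue), with a bar at the median of each row and a dashed line at the median of all named genes (0.03). *Tmed6*, through which the family was chosen, lies at 1.22. On these probes the genes of the transport lists lie between -0.71 and 0.55. GPI anchor remodelling is the list whose median lies to the right of the dashed line.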

How the data were processed

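Islet RNA from 4 βUCP2Tg and 4 WT samples was measured on 1-colour Agilent arrays (Cy3). The authors deposited scanner files of Feature Extraction (version 9.1 per the submitters' processing notes, 10.7.3.1 per the file headers) with background-subtracted spot intensity on a linear scale and flags for well above background and outliers, not scaled between arrays. The authors also deposited a GeneSpring table of log2 values shifted by 1 constant per array, which was used for gene symbols, for probe sequences and as an alternative. Its columns of fold change and p were not used. The arrays carry no read depth, and their number limits the precision.

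From the intensity, control and outlier spots were dropped, and each log2 value was set against the 75th percentile of its array before replicate spots were averaged. Probes were tested if at least 50% of spots were well above background on 4 or more of the 8 arrays, and 20 of these were left out for lacking a usable spot on some array. Genotypes were compared with limma 3.58.1 (lmFit, eBayes; R 4.3.3) without a block, and p-values were adjusted by Benjamini-Hochberg over all tested probes. A gene stood for its probe with the highest mean over the 8 arrays. Plots were drawn with matplotlib 3.10.9 (Python 3.11.15). Gene order and promoter windows came from RefSeq tables of GRCm38.p6.

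The members, gene lists and tests were chosen with earlier results of these data known. Named are *Tmed1* to *Tmed10* and their probes, the genes beside *Tmed6*, the 3 probes most like it and, per transport list, the 2 genes with the largest difference. Alternatives covered the filter, scaling, background correction, deposited values, Student's t-test, a replicate block, probe averaging and leaving out arrays. This t-test, with pooled variance and Benjamini-Hochberg adjustment, is the one the methods name for comparing 2 groups in general. The authors analyzed the arrays in GeneSpring, and their array test was not rerun. Among markers of other cell types, none of the α, δ and PP cell, duct, endothelium, stellate cell or acinar markers was called.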

Additional observations from a re-analysis of the deposited data

Results flagged for a closer look

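No *Tmed* probe had an array that stood apart from the other 3 of its genotype by Dixon's test, which would mark about 1 in 20 groups of 4 by chance. Among the 82 groups examined, which also took in the named transport genes and the genes beside *Tmed6*, 4 had such an array against 4.1 expected. *Copg2* was 0.92 on βUCP2Tg replicate 4 and 1.10 to 1.13 on the other 3 (gap over range 0.859). *Sec24d* was 1.78 on that array and 1.48 to 1.5 on the others (0.925). *Ergic3* was 3.08 there and 3.21 to 3.22 on the others (0.887). *Atf6* was 1.63 on βUCP2Tg replicate 2 and 1.75 on each of the other 3 (0.960). βUCP2Tg replicate 4 was the array of its genotype with the highest acinar sum, 244, and its part in these values was not tested.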

How the results depend on the processing

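The log2 fold change of the brighter *Tmed6* probe stayed between 1.13 and 1.28 over 18 alternatives, but its call did not hold in all. The number of *Tmed* probes called higher, 2, was 1 with no filter on dim probes and 1 with Student's t-test. With a replicate block it was 0, in a fit that called 13 probes higher and 1 lower in all. The sources used here do not say whether samples with the same replicate number are paired. With values centred within each genotype, their Pearson r over all tested probes was 0.44, -0.05, -0.01 and -0.24. These values have no other pairings beside them and cannot settle it. Leaving out 1 array at a time, the number of *Tmed* probes called higher ranged from 0 to 4. It was 0 without βUCP2Tg replicate 1, 2 or 3 or WT replicate 3, when 8 to 15 probes were called higher in all. It was 1 without WT replicate 2 or 4, when 23 and 18 probes were called higher in all. It was 3 without βUCP2Tg replicate 4, in a fit that called 350 probes higher and 1121 lower. It was 4 without WT replicate 1, in a fit that called 1787 higher and 1975 lower. The number called lower, 0, ranged from 0 to 2, with 1 without βUCP2Tg replicate 4 and 2 without WT replicate 1. The transport genes called, 0 in each direction, reached 2 higher and 3 lower without WT replicate 1. Without both βUCP2Tg replicate 4 and WT replicate 1, a choice made after seeing the data, 5 *Tmed* probes were called higher and 3 lower. The same fit called 2 transport genes higher and 3 lower, and 1 gene beside *Tmed6* (*Nqo1*). Over all 34305 probes it tested, 2311 were called higher and 3175 lower. The causes were not tested. The sign of the difference turned for *Tmed2* with quantile normalization (0.08), *Tmed3* with its probes averaged (-0.03), and *Tmed4* without WT replicate 2 or 3. For *Tmed1*, *Tmed5*, *Tmed7*, *Tmed8*, *Tmed9* and *Tmed10* the sign held in all 18. Dim probes moved with the background correction: *Tmed5* A_55_P2105351 moved from 1.47 to 0.73 with normexp, and *Tmed6* A_55_P1983528 from 1.26 to 0.83.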
